A study of Mus musculus with 27 samples.

Results

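The gene expression response of CBA/J mouse lungs to whole thorax irradiation was set against the response of C57L/J and C57BL/6J lungs, using the 9 CBA/J arrays of the 27 arrays in the series. The arrays were chosen by the strain named in the sample records, and the comparison drew on 9 C57L/J and 9 C57BL/6J arrays, together called the C57 strains below. For each gene, the response of a strain was the mean log2 intensity of its irradiated arrays (the average of the 12.5 Gy and 15 Gy group means) minus the mean of its sham arrays. The difference of responses was the CBA/J response minus the average of the C57L/J and C57BL/6J responses. All mice were females aged 10 to 12 weeks, exposed to 0 (sham), 12.5 or 15 Gy of X-rays to the thorax, with head, abdomen and forelimbs shielded, and their lungs were collected 24 h later. There were 3 mice per dose and strain, RNA was taken from the right upper lobe without pooling, and each mouse gave 1 array. No group carried a transgene, deletion or drug, so strain and dose were the only labelled variables. The records, in which the strain is also written C3 CBA, pair CBA/J with pneumonitis, C57L/J with mixed pneumonitis and fibrosis, and C57BL/6J with fibrosis and mild pneumonitis.

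Ionizing radiation breaks DNA and stabilises p53, a transcription factor that switches on genes of cell cycle arrest and death, among them Cdkn1a. It also generates oxidants, to which the transcription factor NRF2 answers by inducing genes of glutathione, thioredoxin and detoxification metabolism through antioxidant response elements. Nucleic acids released in damaged cells can induce type I interferon, whose signal reaches interferon-stimulated genes through the interferon-stimulated response element. Lymphocytes are among the most radiosensitive cells of the lung, while platelets enter it with the blood and from megakaryocytes lodged in its capillaries.

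The lists of NRF2 targets and interferon-stimulated genes (ISGs) are described at length below. As examples, 3 promoters of each that hold a match to the core motif of the response element are printed. Each window is 100 bases from within the 250 bases before a start site listed by RefSeq (GRCm38.p6), and capitals mark matches to the motif on either strand. The reference genome is that of C57BL/6J, so these are not CBA/J sequences. The first 3 hold the antioxidant response element core, searched as TGACNNNGC or TGAGNNNGC.
Srxn1, chr2:152105424-152105523 (+ strand): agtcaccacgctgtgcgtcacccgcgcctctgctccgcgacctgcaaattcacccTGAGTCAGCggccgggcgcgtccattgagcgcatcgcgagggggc
Gclm, chr3:122245377-122245476 (+ strand): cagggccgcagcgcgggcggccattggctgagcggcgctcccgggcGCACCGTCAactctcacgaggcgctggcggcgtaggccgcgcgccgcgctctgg
Txnrd1, a start site among 3 listed, chr10:82859068-82859167 (+ strand): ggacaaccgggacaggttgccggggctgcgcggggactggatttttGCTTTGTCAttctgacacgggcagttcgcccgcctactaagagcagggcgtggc
The other 3 hold the interferon-stimulated response element core, searched as GAAA, 2 bases of any kind and GAAA.
Gbp3, chr3:142559944-142560043 (+ strand): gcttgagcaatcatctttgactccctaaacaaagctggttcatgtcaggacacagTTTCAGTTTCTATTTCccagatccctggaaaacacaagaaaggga
Trim30a, chr7:104465194-104465293 (- strand): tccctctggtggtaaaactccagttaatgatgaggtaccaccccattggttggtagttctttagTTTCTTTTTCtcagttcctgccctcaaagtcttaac
Ifit1, chr19:34640759-34640858 (+ strand): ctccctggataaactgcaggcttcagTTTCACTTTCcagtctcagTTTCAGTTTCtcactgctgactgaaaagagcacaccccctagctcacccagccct
Over 250 bases, the antioxidant core occurred in 10 of the 25 NRF2 list genes with a listed promoter (40.0%) and in 25.7% of all 27025 gene symbols, or 23% of 32851 promoters. The interferon core occurred in 15 of 26 ISGs (57.7%) and in 3.5% of all symbols, or 3.0% of promoters. A match is a description of letters and not evidence of a working site.

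The deposited values were linear intensities of Affymetrix mouse arrays, of which the brightest probe set per gene gave 18194 genes. Lung markers were bright on every array, with the type II cell gene Sftpc between 14.23 and 14.93 and the club cell gene Scgb1a1 between 14.62 and 15.28 on the log2 scale. Skeletal muscle transcripts varied far more. The mean of Ckm and Acta1, creatine kinase and actin of skeletal muscle, ran from 8.77 to 14.94 in CBA/J, against 6.67 to 14.62 in C57L/J and 7.21 to 13.88 in C57BL/6J. It lay over 2 log2 units above the median of the 27 arrays on 9 arrays, namely CBA/J 12.5 Gy replicates 2 and 3, CBA/J 0 Gy replicates 1 and 2, C57L/J 15 Gy replicate 3, C57BL/6J 12.5 Gy replicates 1 and 2 and C57BL/6J 15 Gy replicates 2 and 3. Of the 23 genes of the skeletal muscle list, 22 had a negative difference of responses and the list median was -1.46. The squamous epithelium and fat lists had medians of -1.91 and -0.60. A fit with the Ckm and Acta1 mean as a covariate is quoted where it ends a result or for a list median. A fit without these 9 arrays left a single CBA/J sham array, replicate 3, so its p-values take the spread of that group from the other groups. That array carried other tissue: its mean was the highest of the CBA/J arrays for the fat list (11.54, against 7.81 to 11.00 on the others) and for the lymph node and thymus list (7.73, against 4.73 to 6.36). Every value given without the muscle-carrying arrays rests on it. The part that muscle carry-over plays in any single gene was not tested.

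CBA/J lungs shared the canonical radiation response with the C57 strains. With limma and Benjamini-Hochberg adjustment over all genes, 322 genes rose (1.77%) and 422 fell (2.32%) in irradiated CBA/J lungs at adjusted p below 0.05. In C57L/J 135 genes rose (0.742%) and 229 fell (1.26%). In C57BL/6J 185 genes rose (1.02%) and 457 fell (2.51%). Of the 744 CBA/J genes, 229 were also called in C57L/J (30.8% of the CBA/J calls and 62.9% of the 364 C57L/J calls) and 290 in C57BL/6J (39.0%, and 45.2% of the 642 C57BL/6J calls). All 229 and all 290 moved the same way in both strains. Among 13829 genes with a mean log2 intensity of at least 6, the responses of CBA/J and C57L/J correlated with r = 0.525 across genes and those of CBA/J and C57BL/6J with r = 0.394, beside 0.657 between the C57 strains. Genes are not independent replicates, and these values are descriptive.

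The p53 list moved up in the 3 strains. Of 36 genes, 20 were called higher in CBA/J, 19 in C57L/J and 20 in C57BL/6J, beside 1.77%, 0.742% and 1.02% of all genes. The medians were 0.96, 0.90 and 0.93, beside -0.02, -0.01 and -0.01 over all genes. Cdkn1a, the p21 inhibitor of cyclin-dependent kinases, lay between 12.83 and 13.52 on the 6 irradiated CBA/J arrays (median 13.41), against 10.22, 10.25 and 9.86 on the sham arrays. The irradiated and sham arrays did not overlap in any strain. Such separation held for 1801 of all 18194 genes in CBA/J, 1624 in C57L/J and 1961 in C57BL/6J. The Cdkn1a fold changes were 9.12 in CBA/J, 9.25 in C57L/J and 8.51 in C57BL/6J. Strain responses differed by 0.04 (95% interval -0.42 to 0.50). Eda2r, a p53-induced receptor of the tumour necrosis factor family, rose 5.68-fold in CBA/J, 6.38-fold in C57L/J and 3.64-fold in C57BL/6J. Ccng1, cyclin G1, rose 4-fold in CBA/J, 5.18-fold in C57L/J and 4.87-fold in C57BL/6J. The cell cycle lists moved down in each strain. Of 44 mitosis genes, 16 fell in CBA/J, 6 in C57L/J and 19 in C57BL/6J, beside 2.32%, 1.26% and 2.51% of all genes. Mki67, the proliferation antigen Ki-67, fell to 0.17 of the sham level in CBA/J (adjusted p = 0.0178). That call did not hold without the CBA/J 0 Gy replicate 1 (-2.35, adjusted p = 0.10) or replicate 3 (-2.37, adjusted p = 0.093).

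**Figure D1:**
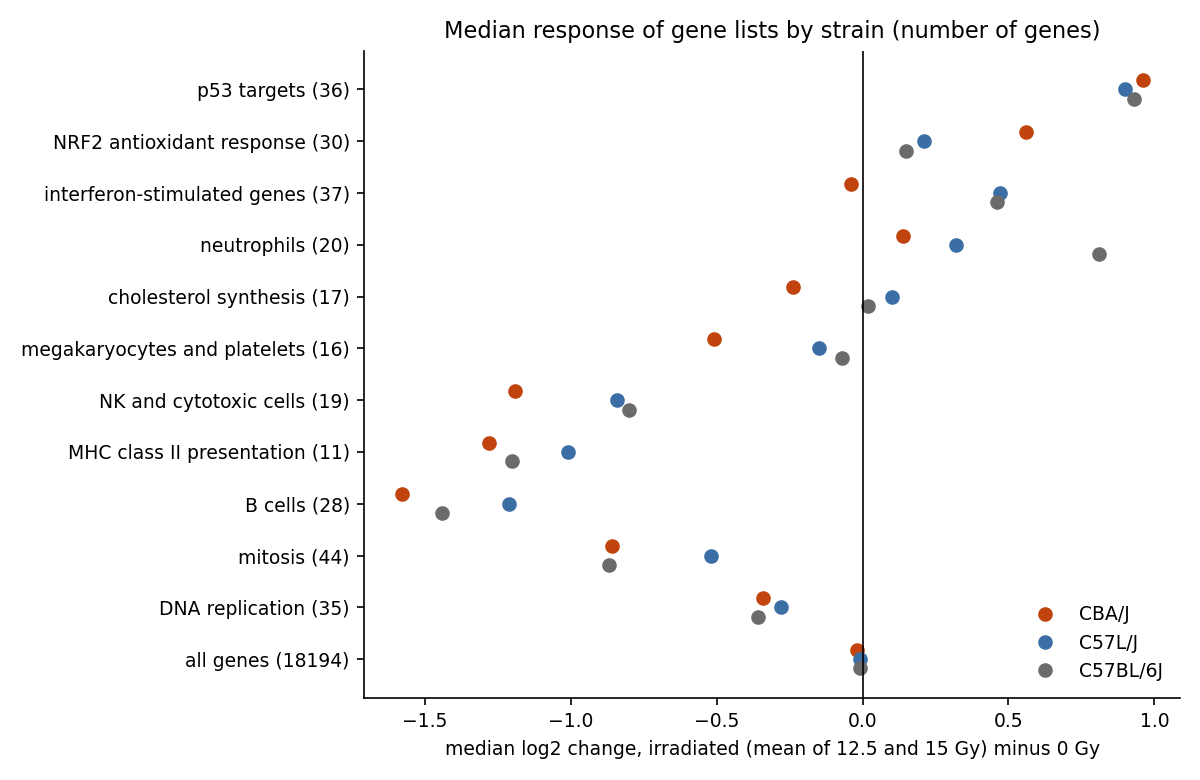
Median log2 change (irradiated minus 0 Gy, horizontal axis) over the genes of 11 lists and over all 18194 genes, with 1 point per strain and the number of genes in brackets. The p53 medians lie within 0.90 to 0.96, while NRF2 targets sit at 0.56 in CBA/J against 0.21 and 0.15 in the C57 strains, and ISGs at -0.04 against 0.47 and 0.46.

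Set against the C57 strains, no gene's difference of responses passed adjusted p below 0.05 in limma, while 1068 passed an unadjusted p below 0.05 and 246 an unadjusted p below 0.01 (1.35% of 18194, where 182 would be expected by chance). The difference was positive in 122 (0.671%) and negative in 124 (0.682%). A positive difference can be a larger rise or a smaller fall in CBA/J, and a negative one a smaller rise or a larger fall. The random variance test named in the study's methods also called 0 genes after adjustment and 255 at an unadjusted p below 0.01. Taken strain by strain, 208 genes passed an unadjusted p below 0.01 for CBA/J minus C57L/J, 261 for CBA/J minus C57BL/6J and 210 for C57L/J minus C57BL/6J. By count, CBA/J and C57L/J differed as the C57 strains did from each other, and CBA/J and C57BL/6J more often, a contrast of counts that was not tested. Single-gene differences below are given at the unadjusted threshold and none is a call after adjustment. Of 53 named results past their threshold, 10 missed it with the muscle covariate. The 12 genes named first in each direction had to pass with that covariate to be chosen, so none of them could be among the 10. The fit without the 9 muscle-carrying arrays leaves CBA/J 1 sham array, so its passes and misses are not counted here.

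NRF2 targets rose more widely in CBA/J lungs than in the C57 lungs by count. Of 30 measured genes, 13 rose in CBA/J (beside 1.77% of all genes), against 1 in C57L/J (beside 0.742%) and 2 in C57BL/6J (beside 1.02%), and none fell. The median response was 0.56 in CBA/J, 0.21 in C57L/J and 0.15 in C57BL/6J. Differences of responses were positive in 25 genes, passed an unadjusted p below 0.01 in 8 (26.7%, beside 1.35% of all genes) and had a median of 0.44 beside -0.00 over all genes. The mean level of the 30 genes was 10.92, 11.14 and 11.10 on the CBA/J sham arrays, 11.34, 11.70 and 11.44 on the 12.5 Gy arrays and 11.70, 11.97 and 11.88 on the 15 Gy arrays. All 6 irradiated CBA/J arrays thus lay above all 3 sham arrays. The means ran from 11.23 to 11.54 in irradiated and from 11.06 to 11.26 in sham C57L/J lungs, and from 11.29 to 11.66 and from 11.13 to 11.52 in those of C57BL/6J, so that irradiated and sham arrays overlapped in both C57 strains. In C57BL/6J the overlap rests on 1 sham array (11.52), since the median of the 3 sham arrays was 11.23. The median difference of responses was 0.21 at 12.5 Gy and 0.50 at 15 Gy, 0.52 with the muscle covariate, 0.34 without the muscle-carrying arrays, and 0.35 to 0.50 with each array left out in turn.

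**Figure D2:**
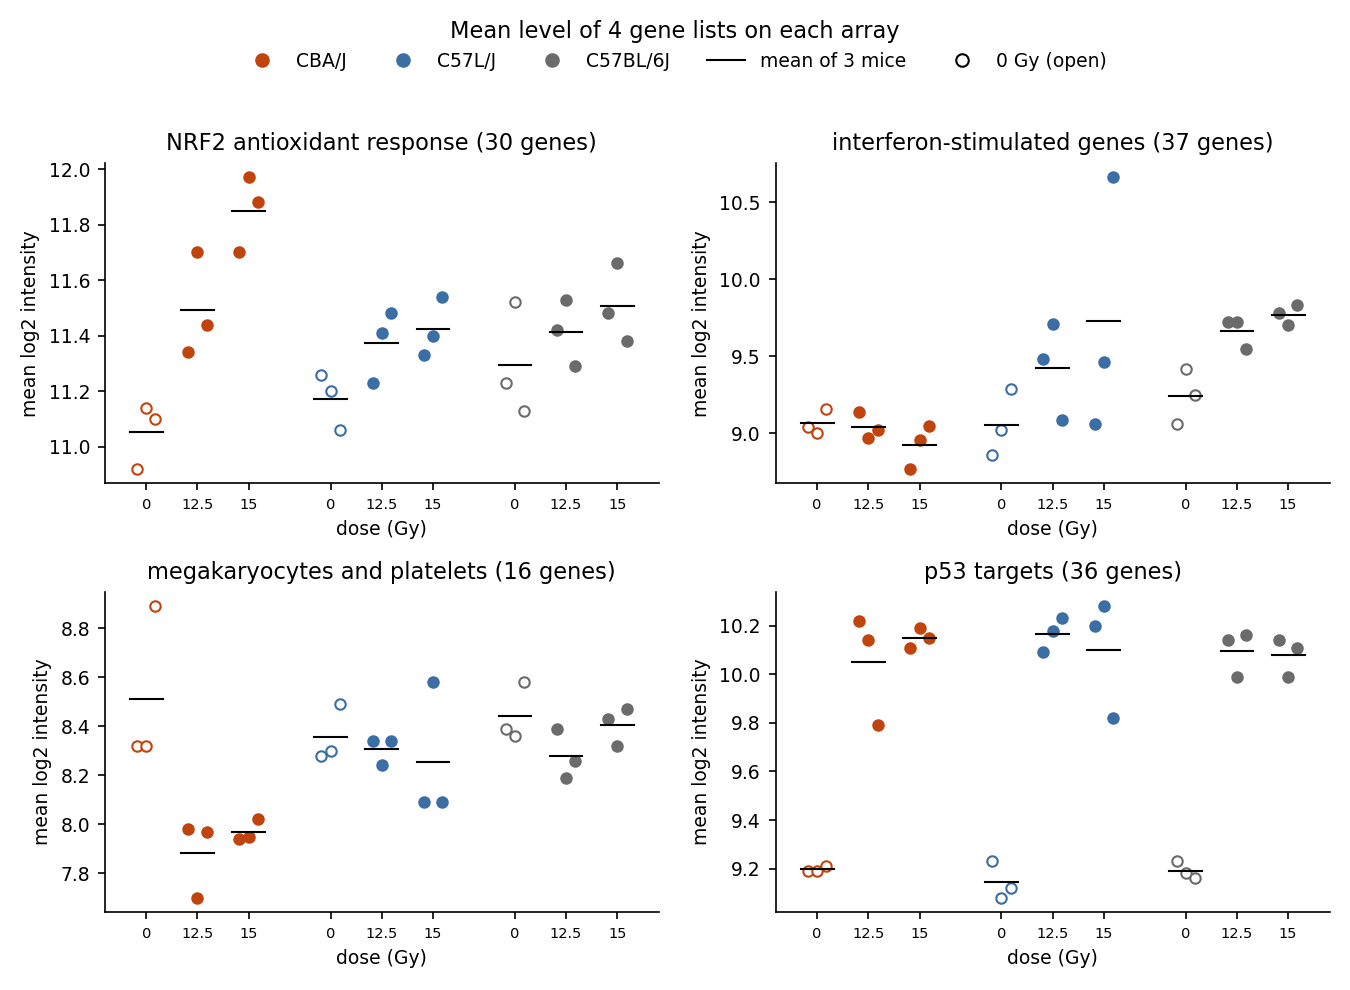
Mean log2 intensity of 4 gene lists on each array by strain and dose (Gy), with 1 point per mouse, open at 0 Gy, and a bar at the mean of 3 mice. The NRF2 mean reaches 11.97 at 15 Gy in CBA/J, the ISG mean stays at or below 9.16 on every CBA/J array, and the platelet mean of the 6 irradiated CBA/J arrays (7.70 to 8.02) lies below the 3 sham arrays (8.32 to 8.89).

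Of the 13 that rose in CBA/J, Gsta2 and Gsr came first by the p of the difference. Gsta2, a glutathione S-transferase, was between 10.11 and 12.56 on the irradiated CBA/J arrays (median 11.39), against 9.43, 10.02 and 9.34 on the sham arrays, and rose 3.37-fold (adjusted p = 0.000394). All irradiated CBA/J arrays were above the sham arrays, as for 736 of all 18194 genes. The 15 Gy arrays (11.61, 12.56 and 11.95) were above the 12.5 Gy arrays (10.68, 11.18 and 10.11). In C57L/J the Gsta2 change was 0.64 (adjusted p = 0.269) and in C57BL/6J 0.26 (adjusted p = 0.679), and the difference of responses was 1.31 ± 0.32 (SE, unadjusted p = 0.000524). Gsr, glutathione reductase, was between 9.73 and 10.62 in irradiated CBA/J lungs (median 10.31), against 9.37, 9.25 and 9.53 in sham lungs, and rose 1.80-fold (adjusted p = 0.00291). Its sham level in the C57 strains was already higher, at 10.04 to 10.54, and its changes there were 0.07 and 0.15 (adjusted p = 0.907 and 0.696). CBA/J exceeded the C57 response by 0.74 ± 0.19 (unadjusted p = 0.00107) and 0.38 (unadjusted p = 0.153) without the muscle-carrying arrays.

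The remaining NRF2 genes at an unadjusted p below 0.01, named here after their values were seen, were Slc7a11, Srxn1, Akr1b8, Txnrd1 and Gclm, together with Ephx1. Slc7a11, the cystine transporter that feeds glutathione synthesis, was between 6.70 and 9.00 on the irradiated CBA/J arrays, against 4.88, 6.11 and 6.11 on the sham arrays, and rose 4.65-fold (adjusted p = 0.00145). The C57L/J and C57BL/6J changes were 1.66-fold and 2.04-fold and did not pass the adjusted threshold. Srxn1, sulfiredoxin, which repairs peroxiredoxins, rose 2.61-fold in CBA/J (adjusted p = 0.00276), with irradiated arrays at 9.24 to 10.44 and sham arrays at 8.14 to 8.47. Irradiated and sham CBA/J arrays did not overlap for either gene, as for 1801 of all 18194 genes. Txnrd1, thioredoxin reductase, rose 1.45-fold (adjusted p = 0.0435), and its most variable probe set gave a difference of responses of 0.21 (unadjusted p = 0.53) in place of 0.63. Gclm, the modifier subunit of the enzyme that begins glutathione synthesis, lay at 11.02, 11.11 and 11.20 at 0 Gy, 11.12 to 11.64 at 12.5 Gy and 11.98 to 12.19 at 15 Gy, a 1.5-fold rise (adjusted p = 0.0248), so that 1 irradiated array lay within the sham range. Ephx1, microsomal epoxide hydrolase, stands in both the p53 and the NRF2 lists and rose in all strains, 3.05-fold in CBA/J, 1.95-fold in C57L/J and 2.14-fold in C57BL/6J. Nqo1 and Hmox1, quinone reductase and haem oxygenase, are the best known NRF2 targets and gave 0.80 (adjusted p = 0.0877) and 0.43 (adjusted p = 0.115) in CBA/J. Several of these differences lay close to the threshold and missed it when single arrays were left out: without CBA/J 0 Gy replicate 1, Slc7a11 gave 0.93 (unadjusted p = 0.0658), Gclm 0.47 (unadjusted p = 0.0281), Akr1b8 0.70 (unadjusted p = 0.0192) and Txnrd1 0.55 (unadjusted p = 0.0135), and without replicate 3 Srxn1 gave 0.87 (unadjusted p = 0.0233). With the muscle covariate Slc7a11 gave 1.31 (unadjusted p = 0.0165) and Srxn1 0.94 (unadjusted p = 0.0111).

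**Figure D3:**
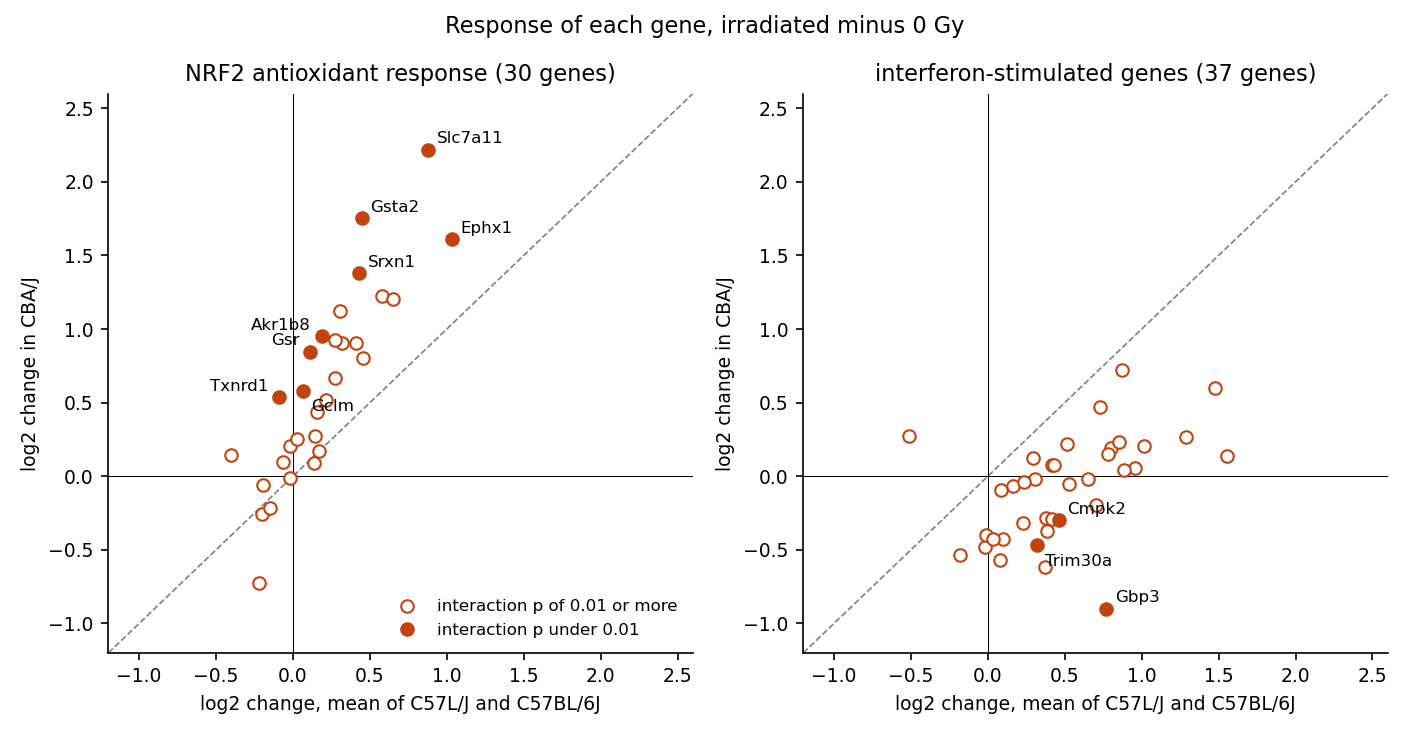
Log2 change of each gene in CBA/J (vertical axis) against the mean log2 change in C57L/J and C57BL/6J (horizontal axis) for 30 NRF2 targets and 37 ISGs, with filled points for a difference of responses at unadjusted p below 0.01. The dashed line marks equal change. Of the NRF2 genes 25 lie above it, and of the ISGs 36 lie below it.

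ISGs showed the opposite arrangement. None of 37 was called in CBA/J or C57L/J, and 3 rose in C57BL/6J (beside 1.02% of all genes). The median response was -0.04 in CBA/J, against 0.47 in C57L/J, 0.46 in C57BL/6J, and 16 genes were higher after irradiation in CBA/J, against 35 in C57L/J and 29 in C57BL/6J. Differences of responses were negative in 36 of 37 genes with a median of -0.61, and 3 passed an unadjusted p below 0.01 (8.1%, beside 1.35%). The exception was Ifi203 (0.79). Mean ISG levels ran from 8.77 to 9.14 in irradiated and from 9.00 to 9.16 in sham CBA/J lungs, from 9.06 to 10.66 and from 8.86 to 9.29 in C57L/J lungs, and from 9.55 to 9.83 and from 9.06 to 9.42 in C57BL/6J lungs. Irradiated and sham arrays overlapped in CBA/J and C57L/J and were separate in C57BL/6J. The highest array, at 10.66, was C57L/J 15 Gy replicate 3, which also carried muscle transcripts and had the lowest p53 list mean of the irradiated C57L/J arrays (9.82). Its list means were 8.83 for lymph node and thymus, 8.72 for thyroid, 12.26 for fat and 8.66 for T cells, each the highest of the C57L/J arrays, and their part in its ISG level was not tested. Without it the median difference of responses was -0.50. The median difference was -0.43 with the muscle covariate, -0.41 without the muscle-carrying arrays and -0.69 to -0.50 with each array left out.

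Gbp3, an interferon-induced guanylate-binding protein, was between 9.95 and 10.70 on the irradiated CBA/J arrays (median 10.49), against 11.06, 11.61 and 11.20 on the sham arrays. It was between 9.93 and 11.59 on irradiated, against 9.49, 9.83 and 10.16 on sham, C57L/J arrays, and between 10.63 and 11.27, against 9.70, 10.27 and 10.46, on C57BL/6J arrays. Its level therefore lay lower after irradiation in CBA/J and higher in both C57 strains, by -0.90 (adjusted p = 0.0945), 0.72 (adjusted p = 0.272) and 0.82 (adjusted p = 0.139). The difference of responses was -1.67 ± 0.36 (unadjusted p = 0.000148, adjusted p = 0.244). Trim30a, an interferon-induced TRIM protein, differed by -0.79 ± 0.21 (unadjusted p = 0.00146), with CBA/J levels of 8.78 to 9.12 after irradiation and 9.29 to 9.48 at 0 Gy. Cmpk2, a mitochondrial nucleotide kinase induced by interferon, differed by -0.76 ± 0.24 (unadjusted p = 0.00453). For Cmpk2 the difference was -0.68 (unadjusted p = 0.0129) with the muscle covariate, -0.41 (unadjusted p = 0.21) without the muscle-carrying arrays, -0.23 with the most variable probe set and -0.73 (unadjusted p = 0.0137) without CBA/J 0 Gy replicate 2. Ifit1, a sensor of viral RNA named here after its values were seen, gave 1.04-fold in CBA/J (adjusted p = 0.951), against 1.81-fold in C57L/J (adjusted p = 0.141) and a 2.08-fold rise in C57BL/6J (adjusted p = 0.0402). Ifngr2, a chain of the interferon gamma receptor, went the other way to the ISGs: it gave 0.33 in CBA/J (adjusted p = 0.30) and fell in C57BL/6J (-0.64, adjusted p = 0.0232), a difference of responses of 0.79 ± 0.19.

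The platelet and megakaryocyte list was lower after irradiation in all 16 of its genes in CBA/J, and 3 fell past the adjusted threshold (beside 2.32% of all genes). No member was called in C57L/J or C57BL/6J, where 11 and 9 of 16 were lower. The medians were -0.51 in CBA/J, -0.15 in C57L/J, -0.07 in C57BL/6J, and the median difference of responses was -0.42. Clec1b, the platelet receptor for podoplanin, was between 7.33 and 8.75 on the irradiated CBA/J arrays (median 7.99), against 8.79, 8.80 and 9.48 on the sham arrays. It fell to 0.47 of the sham level (adjusted p = 0.0161), with changes of 0.03 and 0.19 in the C57 strains, and the difference of responses was -1.2 ± 0.31 (unadjusted p = 0.0010). Rgs18, a regulator of G protein signalling of platelets, fell to 0.48 of the sham level (adjusted p = 0.0253). The CBA/J 0 Gy replicate 3 was high for this gene (10.59, beside 9.50 and 9.57) and for the list as a whole (8.89, beside 8.32 and 8.32). Without it the Rgs18 difference was -0.66 (unadjusted p = 0.0479) in place of -1.02, and the list median -0.34. Gp1bb, a chain of the von Willebrand factor receptor named after its values were seen, fell to 0.58 (adjusted p = 0.00986). In whole lung RNA, fewer cells of a type and less RNA per cell cannot be told apart.

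B cell transcripts fell in every strain. Of 28 B cell genes, 23 fell in CBA/J, 16 in C57L/J and 21 in C57BL/6J, beside 2.32%, 1.26% and 2.51% of all genes. The T cell, plasma cell, NK and MHC class II counts stand against the same shares. The B cell medians were -1.58, -1.21 and -1.44. Of 26 T cell genes, 4, 1 and 4 fell past the adjusted threshold, with medians of -0.84, -0.89 and -0.84. In all, 24, 22 and 24 of the 26 were lower, beside 9685, 9436 and 9249 of all 18194 genes. Of 13 plasma cell and immunoglobulin genes, 1, 0 and 0 fell. Ms4a1, the B cell antigen CD20, was between 7.16 and 9.13 on the irradiated CBA/J arrays (median 8.46), against 10.62, 11.20 and 10.46 on the sham arrays. It fell to 0.18 of the sham level in CBA/J, 0.33 in C57L/J, 0.32 in C57BL/6J, and the difference of responses was -0.82 (95% interval -1.65 to 0.01). NK and cytotoxic genes fell in 12 of 19 cases in CBA/J, 7 in C57L/J and 5 in C57BL/6J, with medians of -1.19, -0.84 and -0.80. The NK difference of responses was negative in 18 of 19 genes with a median of -0.52, which was -0.17 without the muscle-carrying arrays, and no member passed an unadjusted p below 0.01. Klrd1, the NK receptor CD94 named after its values were seen, fell to 0.27 of the sham level in CBA/J (adjusted p = 0.000404) and 0.47 in C57L/J (adjusted p = 0.0483), against 0.55 in C57BL/6J (adjusted p = 0.107). MHC class II genes fell in 10 of 11 cases in CBA/J, 7 in C57L/J and 9 in C57BL/6J. H2-Ea, the E alpha chain, was 8.77 to 9.59 in irradiated and 10.02 to 10.14 in sham CBA/J lungs and fell to 0.54 (adjusted p = 0.0132). In the C57 strains, which carry the H2-b haplotype known not to express this chain, it lay between 5.99 and 7.27 on all arrays, so its difference of responses (-1.21) sets a fall in CBA/J against a near-background signal.

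**Figure D4:**
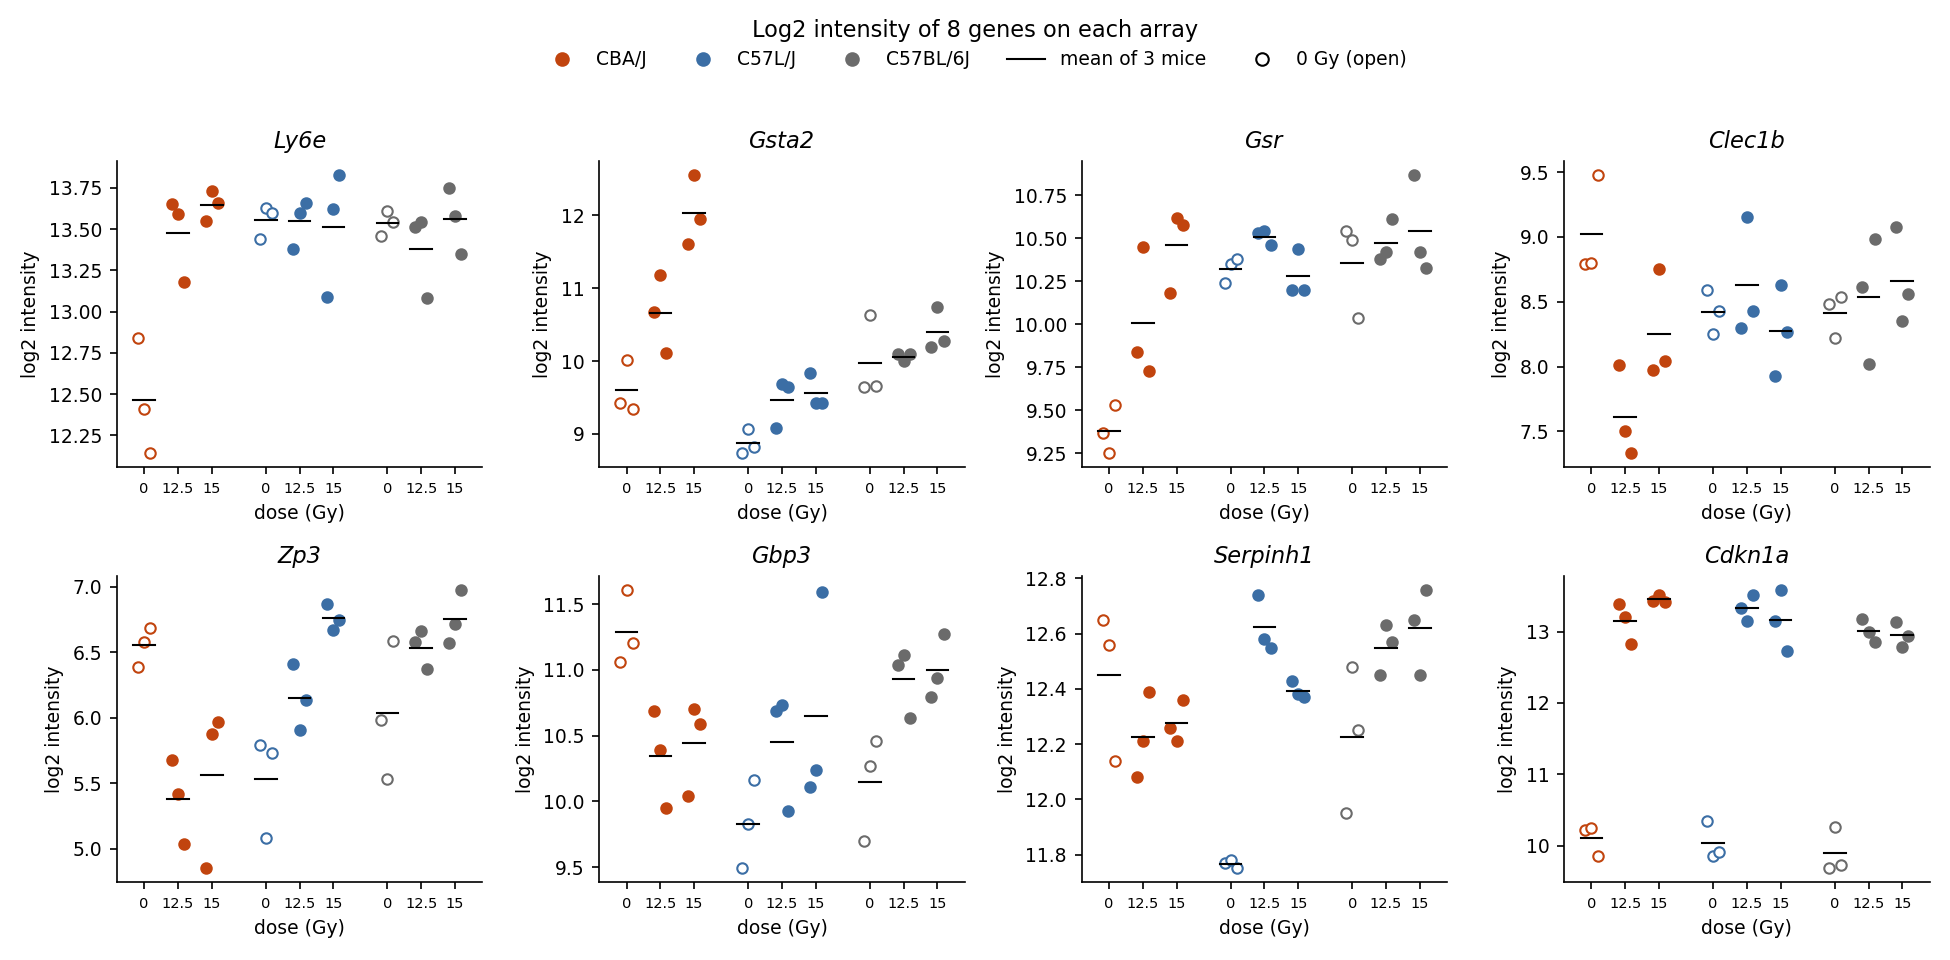
Log2 intensity of 8 genes on each array by strain and dose (Gy), with 1 point per mouse, open at 0 Gy, and a bar at the mean of 3 mice. Ly6e, Gsta2 and Gsr are higher on all irradiated CBA/J arrays than on the CBA/J sham arrays, Clec1b, Zp3 and Gbp3 are lower, and Cdkn1a rises to between 12.73 and 13.59 in every strain.

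Single genes with a positive difference were ranked by p among those also at an unadjusted p below 0.01 with the muscle covariate. Ly6e came first, a GPI-anchored surface protein of the Ly6 family that interferon can induce. On the irradiated CBA/J arrays it was between 13.18 and 13.73 (median 13.62), against 12.84, 12.41 and 12.14 on the sham arrays. In both C57 strains irradiated arrays lay between 13.08 and 13.83 and sham arrays between 13.44 and 13.63. Ly6e rose 2.14-fold in CBA/J (adjusted p = 0.000529) with changes of -0.03 and -0.07 in C57L/J and C57BL/6J, and the difference of responses was 1.15 ± 0.20 (unadjusted p = 1.67e-05, adjusted p = 0.107). Sham Ly6e was thus 1.09 lower in CBA/J than the mean of the C57 strains, and irradiated Ly6e 0.06 higher. St6galnac5, a sialyltransferase, rose 2.73-fold in CBA/J (adjusted p = 0.00212), to between 8.0 and 9.56, against 7.26 to 7.76 at 0 Gy, and gave a difference of responses of 1.63 ± 0.32. Nupr1, a stress-induced nuclear protein, rose 1.83-fold (adjusted p = 0.00288) and gave 1.00 in both C57 strains, with a difference of responses of 0.86 (95% interval 0.45 to 1.27). Aldh1l2, the mitochondrial folate dehydrogenase, rose 1.70-fold (adjusted p = 0.000991) and Reep6, a protein of the endoplasmic reticulum, 2.18-fold (adjusted p = 0.00183). Acsm1, a mitochondrial acyl-CoA synthetase, rose 3.07-fold in CBA/J (adjusted p = 0.000124) and 1.82-fold in C57L/J (adjusted p = 0.0398). Ces1g, a carboxylesterase, rose 4.42-fold (adjusted p = 0.0049), with arrays at 7.49, 7.48 and 7.28 at 0 Gy, 9.11, 9.05 and 8.26 at 12.5 Gy and 9.47, 11.03 and 10.44 at 15 Gy. Without the muscle-carrying arrays the difference of responses was 0.55 (unadjusted p = 0.0534) for Nupr1, 0.58 (unadjusted p = 0.14) for Reep6 and 0.75 (unadjusted p = 0.115) for Acsm1.

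In a second set the change in CBA/J was smaller in size than in either C57 strain. Ccl17, a chemokine that draws CCR4-bearing T cells, was at 0.81 of the sham level in CBA/J (adjusted p = 0.337) and fell to 0.44 in C57L/J (adjusted p = 0.000206) and 0.50 in C57BL/6J (adjusted p = 0.000651). Its sham arrays lay at 6.86 to 7.29 in CBA/J, below those of both C57 strains. Palb2, the partner of BRCA2 in recombination repair, gave -0.00 in CBA/J and fell in C57L/J (-0.74) and C57BL/6J (-0.65). Bpgm and Slc4a1, red cell genes for bisphosphoglycerate mutase and the anion exchanger, were at 0.87 and 0.71 of the sham level in CBA/J, without passing the threshold. They fell to 0.51 and 0.32 in C57L/J and to 0.42 and 0.20 in C57BL/6J. Their CBA/J minus C57 levels were -0.88 and -1.13 at 0 Gy and 0.02 and 0.36 after irradiation. Over the 15 genes of the erythroid list the difference of responses was positive in 10 and negative in 5, with a median of 0.28. At an unadjusted p below 0.01 it was positive in 2 and negative in 1. Gata1, a red cell transcription factor, went the other way, at 0.48 of the sham level in CBA/J, 0.96 in C57L/J and 0.95 in C57BL/6J. Without CBA/J 0 Gy replicate 1 its difference was -0.88 (unadjusted p = 0.0292). Thyn1, a nuclear protein known from thymocyte death, rose in all strains, 1.65-fold in CBA/J, 3.04-fold in C57L/J and 2.94-fold in C57BL/6J. For the immediate early genes Fos, Klf2 and Nr4a1 and the granulocyte gene Stfa2l1 the strain response passed the adjusted threshold in C57BL/6J and not in C57L/J or CBA/J. Fos, a subunit of AP-1, was at 0.97 of the sham level in CBA/J, against 0.81 in C57L/J and a fall to 0.24 in C57BL/6J (adjusted p = 0.000134). Without CBA/J 0 Gy replicate 1 the difference of responses was 0.96 (unadjusted p = 0.0135) for Fos in place of 1.14 and 0.73 (unadjusted p = 0.039) for Nr4a1 in place of 0.98. Without CBA/J 0 Gy replicate 2 it was 1.25 (unadjusted p = 0.039) for Slc4a1 in place of 1.49, and with the muscle covariate 1.03 (unadjusted p = 0.0255). Of 20 neutrophil genes, 2 rose in CBA/J, against 0 in C57L/J and 8 in C57BL/6J, beside 1.77%, 0.742% and 1.02% of all genes.

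Genes with a negative difference of responses included Zp3, Serpinh1, Igfbp3, Dhcr7, Apobec1 and Mmp12. Zp3, a zona pellucida glycoprotein gene that is dim in lung, was between 4.85 and 5.97 on the irradiated CBA/J arrays, against 6.39, 6.58 and 6.69 on the sham arrays, and fell to 0.47 of the sham level (adjusted p = 0.0116). Its changes were 0.92 in C57L/J, 0.61 in C57BL/6J, and its difference of responses, -1.85 ± 0.30 (unadjusted p = 4.24e-06, adjusted p = 0.0771), had the lowest p of all genes. Serpinh1, the collagen chaperone HSP47, was between 12.08 and 12.39 on the irradiated CBA/J arrays, against 12.65, 12.56 and 12.14 on the sham arrays, a change of -0.20 (adjusted p = 0.447). In C57L/J it was 12.37 to 12.74 in irradiated and 11.75 to 11.78 in sham lungs, a 1.67-fold rise (adjusted p = 0.00134). The 2 higher CBA/J sham values are those of the muscle-carrying arrays, and the difference of responses was -0.75 ± 0.14 in all arrays and -0.53 (unadjusted p = 0.0228) without them. Igfbp3, a carrier of insulin-like growth factors, differed by -1.07 ± 0.21 and by -0.76 (unadjusted p = 0.0198) without those arrays. Over the 45 genes of the fibroblast and matrix list the median difference was 0.02, with 23 positive and 22 negative.

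Mmp12, macrophage elastase, was between 6.39 and 7.39 in irradiated CBA/J lungs, against 8.20, 7.95 and 8.79 in sham lungs, and fell to 0.38 of the sham level (adjusted p = 0.00487), with changes of -0.06 in both C57 strains. Apobec1, the cytidine deaminase of Apob mRNA editing, fell to 0.66 (adjusted p = 0.00167), against 0.99 and 1.07 in the C57 strains. Dhcr7, the last enzyme of cholesterol synthesis, was between 8.09 and 8.88 in irradiated CBA/J lungs, against 9.21, 9.50 and 9.32 in sham lungs, and fell to 0.58 (adjusted p = 0.0049). Irradiated and sham CBA/J arrays did not overlap for Mmp12, Apobec1 or Dhcr7, as for 1801 of all 18194 genes. The same arrays chose these named genes, so the separation describes them only. Of 17 cholesterol synthesis genes, 2 fell in CBA/J (beside 2.32% of all genes) and none was called in the C57 strains, 16 had a negative difference of responses, and the median was -0.26. Srebf2, the transcription factor of the pathway, was the other that fell (-0.37, adjusted p = 0.0351).

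The levels of the 12 genes named first for a positive and the 12 for a negative difference were also set side by side. The 12 positive had a median CBA/J minus C57 level of 0.39 after irradiation and -0.43 at 0 Gy, and the 12 negative -0.35 and 0.53. The sham difference was the greater in size for 6 of 12 and 7 of 12 (58.3%), as in 54.4% of all genes. The same arrays chose these genes, so the values describe them only. For the NRF2 list the medians were 0.13 after irradiation and -0.22 at 0 Gy, and for the ISGs -0.65 and -0.11.

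Of 13 measured genes listed from the study, Cdkn1a among them, 3 had a difference of responses at unadjusted p below 0.01 (23.1%, beside 1.35% of all genes). The difference was positive in 2 and negative in 1. The study identified these genes on arrays of this series, so the count is not independent evidence. Pon1, the paraoxonase of high density lipoprotein, was between 10.38 and 11.58 on the irradiated CBA/J arrays, against 12.11, 12.07 and 12.07 on the sham arrays. It fell in all strains, with changes of -1.18 in CBA/J (adjusted p = 2.5e-05), -0.57 in C57L/J (adjusted p = 0.0306) and -0.73 in C57BL/6J (adjusted p = 0.00289), a difference of -0.53 ± 0.16 (unadjusted p = 0.00415) that was -0.52 (unadjusted p = 0.0118) without CBA/J 0 Gy replicate 1. Rgs4, a regulator of G protein signalling, gave -0.18 in CBA/J (adjusted p = 0.701) and -0.63 in C57L/J (adjusted p = 0.0814) and fell in C57BL/6J (-1.03, adjusted p = 0.00204). Its difference of 0.65 ± 0.22 was -0.18 with the most variable probe set. Zfp319, a zinc finger gene, gave 0.19 in CBA/J (adjusted p = 0.697) and 0.02 in C57L/J (adjusted p = 0.98) and fell in C57BL/6J (-1.04, adjusted p = 0.00329). Its difference of 0.70 ± 0.24 was 0.58 (unadjusted p = 0.024) with the muscle covariate. Retnla, Gria1, Auts2 and Specc1 did not pass an unadjusted p below 0.01. Retnla, the resistin-like secreted protein RELM alpha, was between 11.75 and 12.71 on the irradiated CBA/J arrays (median 12.46), against 10.77, 10.86 and 13.93 on the sham arrays. The highest of all 9 CBA/J values was thus sham replicate 3, the array with the highest fat and lymph node list means (11.54 and 7.73), whose part in the Retnla level was not tested. The difference of responses was -0.56 ± 0.56 (unadjusted p = 0.328), and 0.48 without that array.

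**Figure D5:**
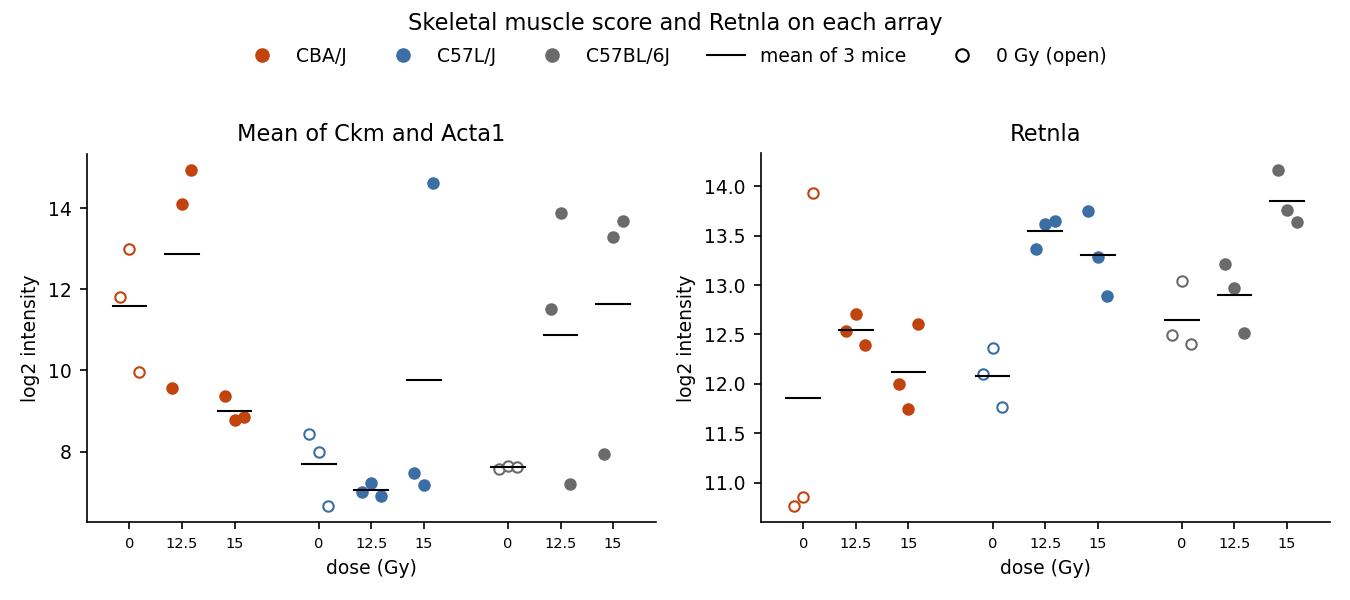
Mean log2 intensity of Ckm and Acta1 (left) and log2 intensity of Retnla (right) on each array by strain and dose (Gy), with 1 point per mouse, open at 0 Gy, and a bar at the mean of 3 mice. The CBA/J sham array with the lowest muscle mean of the 3 sham arrays has the highest CBA/J Retnla value (13.93) and also the highest CBA/J fat list mean (11.54).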

How the data were processed

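Lung RNA of 27 mice was hybridised to Affymetrix Mouse Genome 430 2.0 arrays. The authors deposited a table of linear intensities, made with Affymetrix Expression Console 1.1 per the submitters' notes. All 27 arrays had been scaled to a 2% trimmed mean of 500, as measured from the values, and no source used here names the probe set summary method. Values were floored at 1 and log2-transformed, and the brightest probe set per symbol was kept (45101 probe sets, of which 34958 carried 1 symbol, 932 several and 9211 none). A fit of 9 group means in limma 3.58.1 (R 4.3.3) gave the contrasts, with Benjamini-Hochberg adjustment over 18194 genes. No table column was left unmapped. Python 3.11 with pandas 2.3.3, numpy 2.4.6 and matplotlib 3.10.9 was used for summaries and plots. Array number limits the precision. Replicates are separate mice, so p-values measure the spread between mice.

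The members and the 44 gene lists were chosen with earlier results of these data known. Named genes had a mean log2 intensity of at least 6 and the same sign against both C57 strains. They were the 12 lowest p in each direction at unadjusted p below 0.01 in the fits without and with the Ckm and Acta1 covariate. Added to these were up to 3 members per list at p below 0.01 and the 3 largest shared responses of the p53, mitosis and B cell lists. The 13 measured genes listed from the study were also named. Txnrd1, Srxn1, Akr1b8, Slc7a11, Gclm, Nqo1, Hmox1, Srebf2, Ifit1, Ifi203, Klrd1 and Gp1bb were chosen after their values were seen. The fit was tested on simulated data with 18194 genes: changes of 1 log2 unit reached an unadjusted p below 0.01 in 79% of genes and unchanged genes in 1.01%. Of changes of 1 unit 57%, and of changes of 2 units 92%, reached adjusted p below 0.05. The simulated noise was independent between genes, without tissue carry-over. For each size, 100 genes with a mean log2 intensity of at least 6 were changed. The adjusted rates depend on these settings and need not hold for the measured data. Alternatives were the covariate, omission of the 9 muscle-carrying arrays, a floor of 32, quantile normalization, median-centring, other probe set rules, a filter on low values, a trended prior, array weights, the random variance test, a replicate block and each array left out. Promoters came from RefSeq (GRCm38.p6).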

Additional observations from a re-analysis of the deposited data

Results flagged for a closer look

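Zp3, Serpinh1, Igfbp3, Gbp3 and Wdsub1 stood out among the named genes because every irradiated CBA/J array lay below the mean of the CBA/J sham arrays while every irradiated C57L/J and C57BL/6J array lay above the mean of its own sham arrays. This opposition by array was not tested, and 16 of all 18194 genes showed such a pattern in either direction. The difference of responses was -1.85 for Zp3, -0.75 for Serpinh1, -1.07 for Igfbp3, -1.67 for Gbp3 and -0.44 for Wdsub1, and none passed adjusted p below 0.05 in limma. Wdsub1 was between 9.46 and 9.60 on the irradiated CBA/J arrays, against 9.68, 9.70 and 9.50 on the sham arrays, a smaller spread than for the other 4 genes.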

How the results depend on the processing

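The number of genes with a difference of responses at adjusted p below 0.05 was 0, and became 1 with the muscle covariate, 2 without the muscle-carrying arrays, 2 with the mean of probe sets, 1 with the filter on low values, 27 with array weights and 0 to 2 with each array left out (2 without CBA/J 15 Gy replicate 2). At an unadjusted p below 0.01 the 246 genes became 498 with the covariate, 520 without the muscle-carrying arrays, 694 with array weights and 190 to 306 with each array left out. The 744 CBA/J calls became 254 without the muscle-carrying arrays, 349 with the most variable probe set, 1987 with array weights and 395 to 942 with each array left out, being 420, 395 and 416 without sham replicates 1, 2 and 3. The 364 C57L/J calls became 162 with the most variable probe set, 1003 with array weights and 144 to 478 with each array left out. The 642 C57BL/6J calls became 296 without the muscle-carrying arrays, 284 with the most variable probe set, 383 with the mean of probe sets, 1170 with array weights and 248 to 904 with each array left out. At unadjusted p below 0.01, CBA/J minus C57L/J gave 486 without the muscle-carrying arrays, 603 with array weights and 167 to 248 with each array left out. CBA/J minus C57BL/6J gave 639 with the covariate, 486 without those arrays, 617 with array weights and 190 to 338 with each array left out. C57L/J minus C57BL/6J gave 342 with the covariate, 412 with array weights and 171 to 252 with each array left out. The cause of these shifts was not tested, although omitting 9 arrays leaves fewer samples. Median-centring moved the all-gene median difference by 0.09. It turned the split of 122 positive against 124 negative differences into 202 against 80, and quantile normalization into 166 against 96.

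With the replicate number as a block, 0 genes passed adjusted p below 0.05 for the difference of responses and 269 an unadjusted p below 0.01, and the strain calls were 649 in CBA/J, 284 in C57L/J and 538 in C57BL/6J. Deviations of same-numbered arrays of a strain correlated by -0.073 to 0.249, and those of differently numbered arrays by -0.28 to 0.223. Whether the replicate number pairs the arrays was not tested.

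Of 53 named results past the threshold, 10 missed it with the covariate, 14 with the mean of probe sets and 11 with the most variable probe set. The 12 genes in each direction chosen to pass with the covariate could not be among the 10. With the most variable probe set 4 more changed sign and also missed it, namely Nrxn2 (-0.01), Tef (-0.14), Fkbp5 (-1.58) and Rgs4 (-0.18). In the fit without the muscle-carrying arrays CBA/J has 1 sham array, whose spread is taken from the other groups, so misses there are not counted. With the most variable probe set Gclc, which had not passed, changed sign too (-0.15). The difference of responses changed sign with the covariate for Cdkn1a (-0.07), Gria1 (-0.26) and C1qb (0.00), and with array weights for Cdkn1a (-0.12), Pbk (-0.02), Gria1 (-0.12), Ms4a6d (0.04) and C1qb (0.04). Without the muscle-carrying arrays it did so for Mki67 (-0.20), Ube2c (-0.19), Cd79a (0.38), Specc1 (0.14) and Batf3 (0.03), with median-centring for Specc1 (0.04) and with quantile normalization for Cdkn1a (-0.01). With each array left out in turn, the difference ran across 0, from -0.09 to 0.12 for Cdkn1a, from -0.08 to 0.40 for Eda2r, from -0.10 to 0.46 for Mki67, from -1.10 to 0.48 for Retnla and from -0.09 to 0.15 for Gria1, and likewise from -0.02 to 0.38 for Ube2c, from -0.00 to 0.38 for Pbk and from -0.15 to 0.02 for Specc1. The cause was not tested.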
